A study of Mus musculus with 36 samples.

Results

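The comparison described here sets 3 arrays of RNA newly made in cells treated with interferon gamma (IFN gamma) against 3 arrays of mock-treated cells, both labelled between 150 and 180 min after treatment began, and it covers all 9549 genes that could be tested, whether they rose or fell. The arrays were taken by their labels, as 6 of the 36 arrays of a study that followed the responses to IFN alpha and IFN gamma over 4 labelling windows. The cells were NIH-3T3, an established line of mouse embryo fibroblasts without any genetic change named in the labels, used between passage 5 and passage 15 after thawing. IFN gamma was given at 100 U/ml for 3 h, mock-treated cells were handled for the same time without it, and cells of both groups received 500 µM 4-thiouridine (4sU) for the last 30 min. 4sU is a nucleoside that is built into RNA while it is present, so that RNA made during labelling can be separated from older RNA. 3 arrays of cells given IFN alpha (100 U/ml) in the same window, and 3 IFN gamma and 3 mock arrays labelled between 30 and 60 min with the same 4sU dose, were used for a pair of further comparisons. The labels number the arrays of a group but do not state that they came from separate cultures, so p-values measure the spread between arrays, which may be technical. The arrays of these cultures are read in bulk, so fewer cells making an RNA and less RNA made per cell cannot be told apart.

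IFN gamma binds a receptor formed by Ifngr1 and Ifngr2, whose Janus kinases pass the signal on to transcription factors that bind gamma-activated sites (GAS) in promoters. Irf1, made early in the response, and complexes that hold Stat2 and Irf9 act on interferon-stimulated response elements (ISRE) and so reach a further set of genes. In fibroblasts the pathway is known for cell-autonomous defence against intracellular pathogens, for antigen presentation to T cells and for chemokine release. Labelling with 4sU reads the genes being transcribed in the window rather than RNA accumulated since treatment began.

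The 3 arrays of each group correlated with each other at r of 0.986 to 0.995, a description over genes. IFN gamma array 3 stood apart in the difference between probe sets at the 3′ and the 5′ end of Gapdh, which was 0.51 on the log2 scale there, against -0.49 and -0.27 in the other IFN gamma arrays. The same difference for Actb was 2.16 in that array, against 1.43 and 1.48 in the others, and counts without it are given beside the main ones. Of 10 fibroblast markers 9 passed the filter on low values, and their list had a median of log2 11.82 in IFN gamma arrays and 11.96 in mock arrays, with Fap, a fibroblast surface protease, at background in both. The markers of lymphocytes, endothelium and epithelium (7, 8 and 8 on the array) all stayed under the filter of log2 4. Of 12 macrophage and dendritic cell markers only Cd14 passed the filter, and of 9 adipocyte and muscle markers only 2 did. On the linear scale the macrophage list summed to 107 to 117 in IFN gamma arrays and 146 to 156 in mock arrays. The adipocyte and muscle list summed to 252 to 280 in IFN gamma arrays and 440 to 526 in mock arrays. The highest members were Cd14 (means of 5.34 with IFN gamma and 6.22 with mock) and Lpl (7.75 and 8.79). Their other members had means under log2 4 in both groups, so the sums do not show these lists falling as a whole.

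At 150 to 180 min IFN gamma raised 417 of the 9549 genes and lowered 147, with genes of cell-autonomous immunity, class I antigen presentation, chemokines and antiviral defence among the rises and Hes1, Fam110c, Cthrc1 and Tslp among the falls. These are 4.37% and 1.54% of the genes tested, with a limma p under 0.05 after Benjamini-Hochberg adjustment, from a fit in which all 36 arrays share 1 spread per gene. The rises were larger than the falls: the median of the genes called higher was log2 1.25 (2.38-fold) and of those called lower a fall by 0.77 on the log2 scale (1.71-fold). A change of at least 4-fold was called for 116 genes that rose and for 0 that fell, where 147 falls were called by the same tool and 679 genes had an unadjusted p under 0.05 with a lower level. The largest rise was log2 10.28 and the largest fall was 1.79.

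The number of falls depended on how the spread was estimated. The median standard deviation within a group was 0.39 in mock arrays labelled from 0 to 60 min. In this window it was 0.14 in mock arrays and 0.15 in IFN gamma arrays. With the 9 arrays of this window alone, 586 genes were called higher (6.14%) and 481 lower (5.04%), of which 404 and 137 were also called in the fit of all arrays. Leaving IFN gamma array 2 or 3, or mock array 1 or 2, out of the main fit gave 76, 80, 77 and 85 falls, while the rises stayed between 315 and 383 whichever of the 6 arrays was left out. Every IFN gamma array lay above every mock array for 972 genes (10.2%) and below for 1856 (19.4%), and the median difference over all genes tested was -0.10 on the log2 scale. That shift of the median was not removed in the main values.

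**Figure D1:**
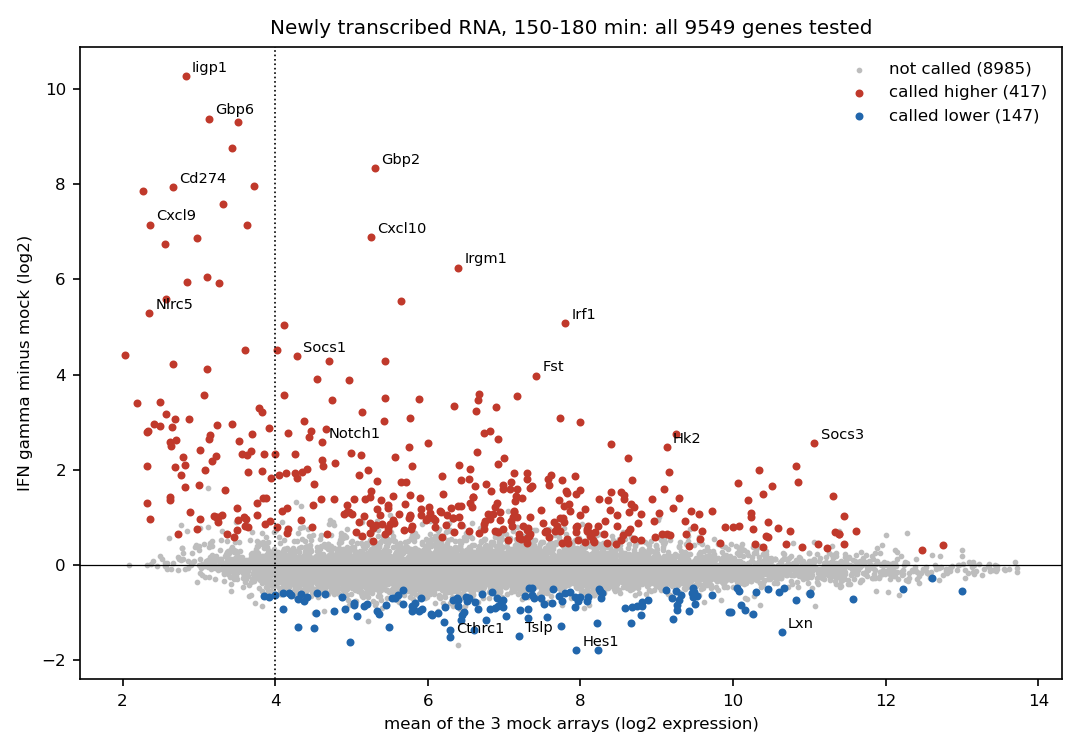
Each point is 1 of the 9549 genes, with the mean of the 3 mock arrays (log2 expression) on the horizontal axis and the difference between IFN gamma and mock arrays at 150 to 180 min (log2) on the vertical axis. Red points were called higher (417 genes), blue points called lower (147 genes), grey points were not called, and the dotted line marks the filter at log2 4; the largest rises lie left of that line, where the mock level is background.

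The promoters of 6 induced genes are printed because they hold the sequence motifs through which this pathway is known to act, and because the results on the GTPases, on Irf1 and on Socs1 turn on these genes. The windows run from 250 bases before to 50 bases after the transcript start, 5′ to 3′ on the strand of the gene, from RefSeq (GRCm38.p6). Capitals mark matches to GAS (TTCNNNGAA) or to the ISRE core (GAAA, any 2 bases, then GAAA again), each searched on both strands. The 6 genes were picked after their values and their matches had been seen. The windows are chr11:53769764-53770063, plus strand (Irf1, the first of 2 windows listed for this gene), chr16:10785487-10785786, minus strand (Socs1), chr11:58199306-58199605, plus strand (Igtp), chr11:58214727-58215026, plus strand (Irgm2), chr3:142620413-142620712, plus strand (Gbp2) and chr3:142530086-142530385, plus strand (Gbp7).
Irf1: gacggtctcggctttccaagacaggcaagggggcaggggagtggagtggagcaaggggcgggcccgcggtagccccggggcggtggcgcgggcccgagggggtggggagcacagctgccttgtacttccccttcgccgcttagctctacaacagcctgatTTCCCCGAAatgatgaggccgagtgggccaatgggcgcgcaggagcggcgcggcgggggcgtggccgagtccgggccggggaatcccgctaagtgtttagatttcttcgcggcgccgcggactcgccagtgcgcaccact
Socs1: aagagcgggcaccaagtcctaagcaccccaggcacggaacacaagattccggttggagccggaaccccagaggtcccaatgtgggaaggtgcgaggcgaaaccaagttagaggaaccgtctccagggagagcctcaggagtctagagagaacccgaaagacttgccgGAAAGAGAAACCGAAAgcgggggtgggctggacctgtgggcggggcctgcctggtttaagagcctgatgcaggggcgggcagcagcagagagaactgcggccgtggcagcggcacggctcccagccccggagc
Igtp: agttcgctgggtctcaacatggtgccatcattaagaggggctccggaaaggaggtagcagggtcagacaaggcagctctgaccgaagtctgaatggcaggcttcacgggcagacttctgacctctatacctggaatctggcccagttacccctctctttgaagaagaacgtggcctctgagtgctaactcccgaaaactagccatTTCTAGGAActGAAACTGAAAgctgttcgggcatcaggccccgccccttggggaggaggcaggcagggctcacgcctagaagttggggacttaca
Irgm2: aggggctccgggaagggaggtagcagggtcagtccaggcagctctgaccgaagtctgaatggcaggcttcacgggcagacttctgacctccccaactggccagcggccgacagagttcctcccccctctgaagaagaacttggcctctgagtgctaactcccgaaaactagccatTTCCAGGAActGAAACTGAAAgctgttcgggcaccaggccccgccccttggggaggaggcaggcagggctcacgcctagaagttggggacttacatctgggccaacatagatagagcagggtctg
Gbp2: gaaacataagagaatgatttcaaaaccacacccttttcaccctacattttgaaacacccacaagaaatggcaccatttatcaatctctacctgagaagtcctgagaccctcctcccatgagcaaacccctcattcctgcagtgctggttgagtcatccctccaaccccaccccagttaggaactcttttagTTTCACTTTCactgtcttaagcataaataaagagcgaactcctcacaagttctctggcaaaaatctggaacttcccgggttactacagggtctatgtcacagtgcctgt
Gbp7: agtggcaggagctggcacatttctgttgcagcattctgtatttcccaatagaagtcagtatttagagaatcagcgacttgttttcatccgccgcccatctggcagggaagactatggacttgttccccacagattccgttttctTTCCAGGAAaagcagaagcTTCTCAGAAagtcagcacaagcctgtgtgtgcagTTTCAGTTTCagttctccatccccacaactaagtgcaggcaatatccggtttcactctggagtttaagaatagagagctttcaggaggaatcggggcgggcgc
In Irf1 a GAS match begins 90 bases before the start. Socs1 holds a pair of ISRE core matches that overlap, beginning 83 and 77 bases before the start. Igtp and Irgm2 each hold a GAS match followed by an ISRE core match, beginning at -45 and -34 in Igtp and at -75 and -64 in Irgm2. Gbp2 has an ISRE core match at -59, read on the other strand, and Gbp7 has GAS matches at -106 and -87 with an ISRE core match at -53, also on the other strand.

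Over all genes, GAS matches stood in 16.2% of the promoters of genes called higher and ISRE core matches in 13.6% (339 of the 417 genes had a promoter in the table). Among the 7826 tested genes with a promoter the shares were 7.91% and 3.62%. Counted by single window, among all 32851 promoter windows, the shares were 8.3% and 3.44%. Among the 83 genes with a promoter that rose by 4-fold or more they were 18.1% and 27.7%. Genes called lower, with 112 promoters, held GAS in 9.82% and the ISRE core in 3.57%, and genes not called held them in 7.5% and 3.16%. A gene with several windows counts once if any window holds the motif. The shares are descriptions without a test, and a match in letters says nothing of binding.

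Of 7 interferon receptor chains and Janus kinases 1 was called higher and 0 lower, with a median of 0.0 on the log2 scale. That gene was Ifnar2, a chain of the IFN alpha receptor, at 7.77, 7.80 and 7.83 in IFN gamma arrays, against 6.46, 6.61 and 6.69 in mock arrays (difference 1.22 ± 0.20 SE, adjusted p = 3.8e-05). Its arrays did not overlap, but 2 other probe sets of the gene were not called.

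Of 12 STAT and IRF transcription factors (and the related Batf2 and Ets1), 7 rose and 0 fell, with a median of 1.28 against -0.10 over all genes. Irf1, the factor that relays the response to ISRE genes, was read at 12.92, 12.81 and 12.92 in IFN gamma arrays, against 7.85, 7.78 and 7.77 in mock arrays, a difference of 5.08 ± 0.19 (SE, n = 3 arrays in each group; 33.8-fold, adjusted p = 6.8e-20). Irf9, the DNA-binding partner of Stat2, stood at 8.74, 8.97 and 8.87 with IFN gamma, against 5.13, 4.95 and 4.82 with mock (difference 3.89 ± 0.17, adjusted p = 6.5e-18). Both genes were measured above the filter in mock cells, so these are changes over a measured level. Stat2 had 8.57, 8.60 and 7.47 in IFN gamma arrays, against 4.69, 4.80 and 4.72 in mock arrays (difference 3.48 ± 0.42, adjusted p = 1.7e-07). Its IFN gamma array 3 was the lowest of the 3 by over log2 1, yet remained above every mock array. Batf2, a leucine zipper factor of the AP-1 family, read 5.46, 4.91 and 5.09 with IFN gamma, against 2.35, 2.35 and 2.32 with mock, where mock lay at background (difference 2.82 ± 0.12, adjusted p = 4.0e-18). Irf8, a factor known from myeloid cells, stayed under the filter in both groups, at 2.34 with IFN gamma and 2.32 with mock.

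The feedback inhibitors split into a few strong rises and a majority without a call: 5 of 15 rose, 0 fell, and the median was 0.05. Socs1, which blocks the kinases of this pathway, was at 8.69, 8.99 and 8.36 in IFN gamma arrays, against 4.07, 4.04 and 4.74 in mock arrays (difference 4.40 ± 0.34, adjusted p = 8.1e-12). Socs3, best known as the inhibitor of signalling by gp130 cytokines, was at 13.63, 13.63 and 13.60, against 11.24, 11.09 and 10.87 in mock arrays (difference 2.55 ± 0.15, adjusted p = 4.7e-15). The IFN gamma arrays of Socs3 spanned 0.03 on the log2 scale and lay near the top of the values in the table, which reach 14.82. With IFN gamma at 30 to 60 min Socs3 read higher, at 14.16, 14.11 and 14.15. Cish, an inhibitor of Stat5 signalling, read 7.19, 6.61 and 6.95 with IFN gamma, against 4.77, 4.75 and 4.83 with mock (difference 2.13 ± 0.27, adjusted p = 5.6e-07). Usp18, which removes Isg15 from proteins and restrains the IFN alpha receptor, read 6.67, 6.41 and 6.81 with IFN gamma, against 3.04, 3.34 and 2.81 with mock, where it was under the filter (difference 3.56 ± 0.50, adjusted p = 3.3e-06). The fifth gene, the phosphatase Ptpn1, rose by log2 0.65 (adjusted p = 0.018), a call that was lost in 5 of the 6 fits that left out 1 array.

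The GTPases of cell-autonomous immunity made up 9 of the 15 largest rises. Of 7 immunity-related GTPases on the array 6 passed the filter and were called higher, with a median of log2 8.36, as did 6 of 6 guanylate-binding proteins, with a median of 7.37. In each list 5 of the 6 had mock means under log2 4 and so passed the filter through groups where they were high, which largely sets these counts. Irgc1, which did not pass, was at 2.24 in both groups. Iigp1, which acts at the vacuoles of intracellular parasites, was at 13.11, 13.04 and 13.17 in IFN gamma arrays, against 2.69, 2.99 and 2.79 in mock arrays (difference 10.28 ± 0.36, adjusted p = 1.7e-20). Igtp had 12.79, 12.83 and 12.84 with IFN gamma, against 3.69, 3.31 and 3.53 with mock (difference 9.31 ± 0.29, adjusted p = 9.3e-22), and Irgm2 12.17, 12.12 and 12.26, against 3.42, 3.24 and 3.62 (difference 8.76 ± 0.24, adjusted p = 1.9e-23). In each of these the 3 IFN gamma arrays lay within log2 0.2 of each other and the mock arrays lay under the filter, so the difference is over background and not over a measured mock level. Set against the filter level of log2 4 in place of the mock value, the mean of Iigp1 was 551-fold higher, that of Igtp 452-fold and that of Irgm2 291-fold.

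Irgm1, a regulatory member of the same family, had a mock level that could be measured, at 12.67, 12.65 and 12.63 in IFN gamma arrays, against 6.44, 6.72 and 6.04 in mock arrays (difference 6.25 ± 0.28, 76.1-fold, adjusted p = 6.5e-18). It was the largest rise among the genes with a mock mean of at least log2 6. The remaining members, Ifi47 and Gm4951, rose by 7.96 and 5.96. Among the guanylate-binding proteins, which attack pathogen vacuoles and bacterial surfaces, Gbp2 was at 13.68, 13.63 and 13.62 with IFN gamma, against 5.40, 5.91 and 4.60 with mock (difference 8.34 ± 0.35, adjusted p = 1.4e-18). Its mock arrays spread over more than log2 1 and were all above the filter. Gbp6 read 12.62, 12.46 and 12.44 with IFN gamma, against 3.28, 3.30 and 2.80 with mock (difference 9.38 ± 0.31, adjusted p = 4.2e-21). Gbp7 and Gbp3 rose by 7.59 and 7.15 from background levels, and Gbp2b and Gbp8 by 4.42 and 2.63. The lower members of the family reached means of only 6.45 (Gbp2b) and 5.34 (Gbp8) with IFN gamma. Members of these families resemble each other in sequence, and how far their probe sets share RNA was not tested.

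**Figure D2:**
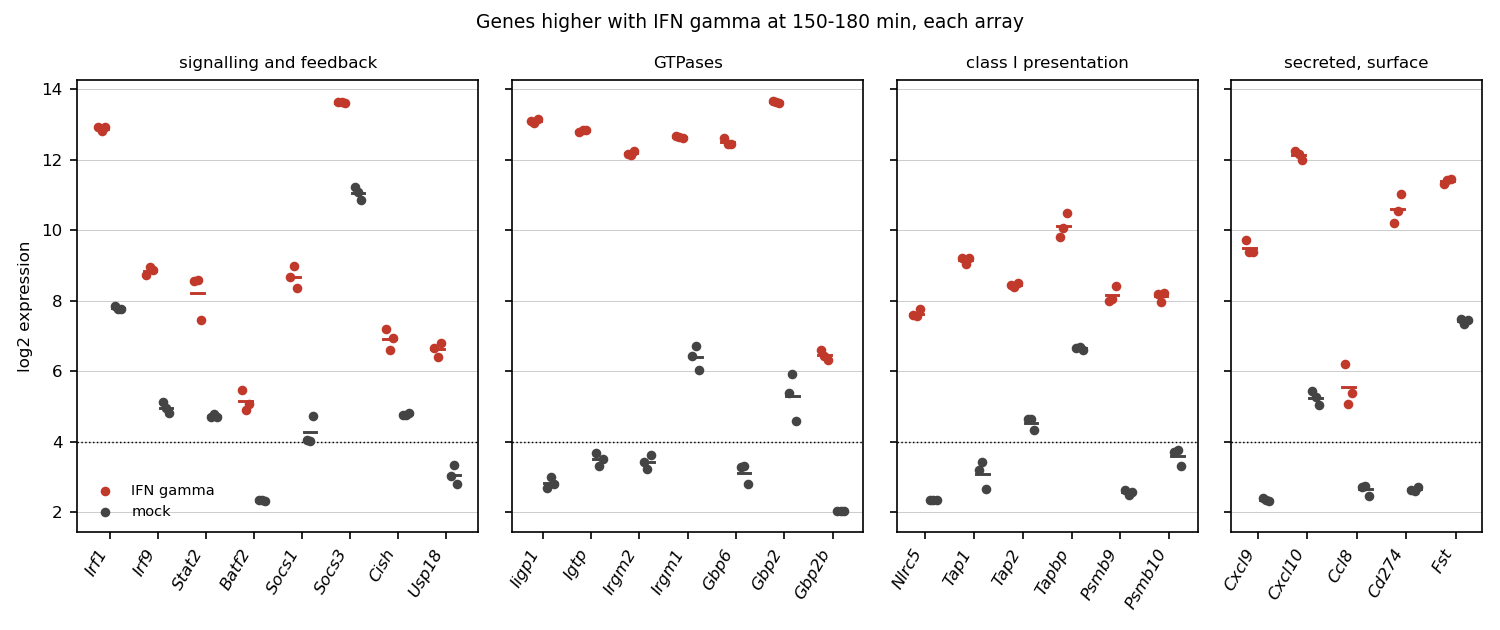
Log2 expression of induced genes on each array at 150 to 180 min, with IFN gamma in red to the left of mock in grey; points are the 3 arrays of each group, short lines their means and the dotted line the filter at log2 4. In every gene shown the red points lie above the grey ones, and Irf1, Irgm1, Socs3, Tapbp and Fst start from mock levels above log2 6.

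Most tested genes of class I antigen presentation rose. Of 13 tested genes of peptide loading and class I regulation, 10 were called higher and 0 lower, with a median of 1.63. Of 4 inducible proteasome genes on the array 3 passed the filter and were called higher, with a median of 4.52; Psmb9 and Psmb10 passed through groups where they were high, and Psmb8 was under the filter at 2.98 in both groups. Tap1, a chain of the transporter that carries peptides into the endoplasmic reticulum, had 9.20, 9.04 and 9.23 in IFN gamma arrays, against 3.22, 3.42 and 2.68 in mock arrays (difference 6.05 ± 0.28, adjusted p = 1.7e-17). Its partner Tap2 had 8.45, 8.40 and 8.51, against 4.66, 4.65 and 4.33 with mock (difference 3.91 ± 0.25, adjusted p = 1.1e-13). Tapbp, or tapasin, which bridges the transporter and class I molecules, read 9.82, 10.07 and 10.50 with IFN gamma, against 6.67, 6.69 and 6.61 with mock (difference 3.48 ± 0.30, 11.1-fold, adjusted p = 9.5e-11). The groups did not overlap for any of these 3 genes. Nlrc5, a transactivator of class I genes, was at 7.59, 7.56 and 7.78 with IFN gamma, against 2.37, 2.35 and 2.34 with mock, which is background (difference 5.29 ± 0.13, adjusted p = 4.0e-25).

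In the proteasome, calls in the fit of all arrays were in inducible subunits. Psmb9, a catalytic subunit of the immunoproteasome, was at 7.99, 8.07 and 8.41 in IFN gamma arrays, against 2.62, 2.50 and 2.59 in mock arrays (difference 5.58 ± 0.21, adjusted p = 1.1e-19). Psmb10, another such subunit, had 8.18, 7.98 and 8.23 with IFN gamma, against 3.72, 3.78 and 3.32 with mock (difference 4.52 ± 0.30, adjusted p = 1.3e-13). Psme1, part of the proteasome activator PA28, rose by 2.25 from a measured mock mean of 7.0 (adjusted p = 4.5e-10). Of 20 constitutive proteasome genes 0 were called in either direction, with a median of -0.07, beside 5.91% of all genes called; the window alone called 1 of them higher. Psma3, a core subunit, differed by -0.02 ± 0.13, although its 1 other probe set was called higher, and Psmc2, an ATPase of the regulatory particle, by -0.20 ± 0.13. No class II gene could be tested: all 8 on the array were under the filter, and Ciita, the master regulator of class II genes, had means of 3.42 with IFN gamma and 2.67 with mock.

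Of 16 chemokines on the array 10 passed the filter, and 7 of these rose and 0 fell, with a median of 1.74. Over all genes 4.37% were called higher. Cxcl9 and Ccl8 passed the filter through groups where they were high. Those that did not pass, such as Ccl5 and Cxcl16, were at background in both groups. Cxcl9, a ligand of Cxcr3, a chemokine receptor of T cells, was at 9.74, 9.39 and 9.39 in IFN gamma arrays, against 2.40, 2.35 and 2.31 in mock arrays at background (difference 7.15 ± 0.48, adjusted p = 2.5e-13). Cxcl10, another Cxcr3 ligand, had 12.26, 12.17 and 12.0 with IFN gamma, against 5.45, 5.27 and 5.04 with mock (difference 6.89 ± 0.47, 119-fold, adjusted p = 3.9e-13). Every array of both groups was above the filter for Cxcl10. The monocyte attractants Ccl7 and Ccl8 rose by 2.75 ± 0.30 and 2.91 ± 0.24; Ccl7 was already at a mean of 9.26 in mock arrays, while Ccl8 was at background there. Among 7 T-cell ligands and adhesion genes 2 rose, with a list median of 0.38. Cd274, the ligand PD-L1 that restrains T cells, had 10.20, 10.55 and 11.03 in IFN gamma arrays, against 2.64, 2.61 and 2.73 in mock arrays (difference 7.94 ± 0.39, adjusted p = 8.4e-17), and Lgals3bp, a secreted glycoprotein that binds galectins, rose by 2.39.

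Of 50 antiviral effector genes on the array 47 passed the filter. Of these 38 were called higher and 0 lower, with a median of 2.07, beside 4.37% of all genes called higher. Members such as Oasl2 and Parp14 had mock means under log2 4 and so passed the filter through groups where they were high, which partly sets this count. Oas3 and Ifitm1 did not pass and were at background in both groups. Oasl2, a member of the oligoadenylate synthetase family, was at 9.82, 9.85 and 9.89 with IFN gamma, against 2.96, 3.22 and 2.73 with mock (difference 6.88 ± 0.45, adjusted p = 1.7e-13). Parp14, a mono-ADP-ribosyltransferase, rose by 5.92, Rtp4, a regulator of antiviral signalling, by 5.55, and Xaf1, an interferon-induced partner of XIAP, by 5.04. Ifit1 and Mx1, often used to read a type I interferon response, had smaller values. Ifit1 was at 10.12, 9.60 and 9.89 in IFN gamma arrays, against 7.03, 6.74 and 6.14 in mock arrays (difference 3.23 ± 0.50, adjusted p = 1.8e-05). Mx1, a dynamin-like antiviral GTPase, had 3.56, 3.54 and 4.27 with IFN gamma, against 3.09, 3.08 and 2.87 with mock (difference 0.78 ± 0.42), and was not called (adjusted p = 0.44). Its arrays did not overlap and the window alone gave an adjusted p of 0.021, at levels close to the filter.

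Other groups held fewer rises. Of 22 caspases and cell death genes 7 rose and 0 fell, with a median of 0.18; the death receptor Fas rose by 2.09 ± 0.21, the necroptosis effector Mlkl by 1.61 ± 0.19, and Casp4 and Bak1, which act in inflammatory and mitochondrial death, by 1.43 and 1.43. Of 18 NF-kB targets 5 rose, with a median of 0.12. Tnfaip2 led them at 10.81, 10.90 and 10.74 in IFN gamma arrays, against 7.85, 7.83 and 7.50 in mock arrays (difference 3.09 ± 0.16, adjusted p = 2.5e-16), followed by Ccl2 (2.07), the mitochondrial superoxide dismutase Sod2 (1.60), Irak2 (1.03) and Cxcl1 (0.71). Irak2 and Cxcl1 lost their calls in all 6 fits that left out 1 array. Of 6 interferon-regulated enzymes that could be tested 4 rose: Wars, the tryptophanyl-tRNA synthetase, by 2.65 ± 0.26, Nampt, an enzyme of NAD synthesis, by 1.81 ± 0.31, the aminopeptidase Lap3 by 1.78 ± 0.20, and the uridine phosphorylase Upp1 by 0.65 at means under the filter, a call lost in 5 of the 6 fits that left out 1 array. Ido1 and Nos2, enzymes known from IFN gamma responses of other cells, were at background in both groups, with Ido1 at 2.21 with IFN gamma and 2.22 with mock, and Nos2 at 2.12 in each.

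**Figure D3:**
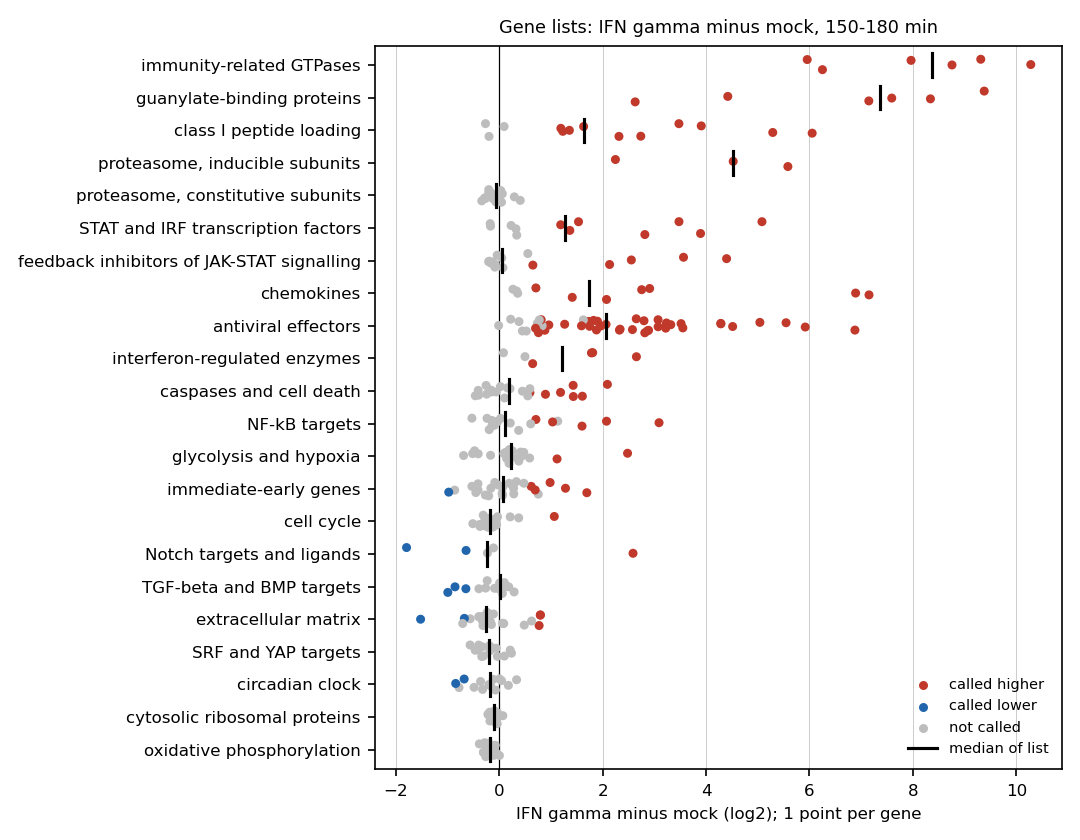
Each point is 1 tested gene of the list named on the left, at its difference between IFN gamma and mock arrays at 150 to 180 min (log2); red points were called higher, blue points called lower, grey points were not called, and black lines are list medians. The GTPase lists have medians of 8.36 and 7.37, and the constitutive proteasome, ribosomal protein and oxidative phosphorylation lists stay near 0 without a call.

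Fst, or follistatin, which binds activins and blocks their signalling, was at 11.31, 11.44 and 11.46 in IFN gamma arrays, against 7.47, 7.33 and 7.46 in mock arrays (difference 3.98 ± 0.18, 15.8-fold, adjusted p = 1.2e-17). Hk2, the hexokinase that starts glycolysis in growing cells, had 11.62, 11.50 and 11.72 with IFN gamma, against 8.99, 9.23 and 9.17 with mock (difference 2.48 ± 0.11, adjusted p = 1.3e-17). Both were measured in mock cells, and in both every IFN gamma array exceeded every mock array by more than log2 2. Hk2 and Bnip3 (a mitochondrial protein of hypoxia and mitophagy, 1.12 ± 0.29) were called among 21 glycolysis and hypoxia genes, whose median was 0.23, while the window alone called 8 higher and 2 lower. Bnip3 lost its call without IFN gamma array 1. Rnf19b, a ubiquitin ligase, Samhd1, an antiviral enzyme that depletes nucleotides, and the large proteins Samd9l and Rnf213 rose by 3.60, 3.55, 3.34 and 3.32 from mock means of at least log2 6. For Rnf213 another probe set was called lower, the only gene among 192 genes called higher with further probe sets where that was so. BC023105, a gene without a role stated here, and the apolipoprotein L gene Apol6 rose by 7.85 and 6.75 from background.

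The falls were fewer and smaller, and among genes with a single symbol those of Hes1 and Fam110c were the largest and alike in size. Hes1, a transcriptional repressor that answers Notch signalling, was at 6.21, 6.10 and 6.13 in IFN gamma arrays, against 7.81, 7.72 and 8.30 in mock arrays (difference -1.79 ± 0.24, 3.46-fold lower, adjusted p = 1.6e-06). The highest IFN gamma array was more than log2 1.5 below the lowest mock array. The list of Notch receptors, ligands and targets went both ways: of 5 tested genes 1 rose and 2 fell, with a median of -0.23. Notch1, a receptor, rose to 7.54, 6.93 and 7.15 with IFN gamma, against 4.79, 4.71 and 4.36 with mock (difference 2.59 ± 0.27, adjusted p = 6.5e-09). Jag1, a Notch ligand, fell to 7.18, 6.95 and 7.10 with IFN gamma, against 7.70, 7.58 and 7.88 with mock (difference -0.64 ± 0.14, adjusted p = 0.002); its other probe set was not called. Other Notch targets such as Hey1 and Heyl were under the filter.

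The genes described next belong to the 20 largest falls among called genes whose groups did not overlap and whose mock mean reached log2 6. Tslp, a cytokine that acts on dendritic cells, was at 6.01, 5.53 and 5.58 in IFN gamma arrays, against 7.37, 7.39 and 6.81 in mock arrays (difference -1.48 ± 0.25, adjusted p = 7.5e-05). Cthrc1, a secreted protein of collagen-producing cells, had 5.16, 4.44 and 4.72 with IFN gamma, against 6.54, 6.17 and 6.17 with mock (difference -1.52 ± 0.21, adjusted p = 2.4e-06). Lxn, an inhibitor of carboxypeptidases, was the fall from the highest level of these, at 9.42, 9.13 and 9.16 with IFN gamma, against 10.84, 10.65 and 10.43 with mock (difference -1.40 ± 0.17, adjusted p = 2.0e-07). The groups lay apart in these genes, as the rule for the 20 falls required. Cd55, which protects cells from complement, and the matrix protein Spon2 fell, with differences of -1.29 ± 0.26 and -1.13 ± 0.22. The lipid genes Lpl, a lipoprotein lipase, and Abca1, a cholesterol exporter, had differences of -1.04 ± 0.25 and -1.05 ± 0.32. The call of Abca1 (adjusted p = 0.048) was lost whichever of the 6 arrays was left out, as was that of the homeobox gene Lhx9 (-1.09 ± 0.32, adjusted p = 0.032). For Lpl, and for 6 other genes of the 20, another probe set was called lower too. Of all genes called lower, 67 had further kept probe sets, and for 22 of these another was called lower. Among genes called higher, another probe set was called higher for 120 of 192.

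Rgs4, which quenches G protein signalling, was at 7.15, 6.85 and 7.01 in IFN gamma arrays, against 8.39, 8.09 and 8.19 in mock arrays (difference -1.22 ± 0.13, adjusted p = 2.2e-08). Ramp3, a partner of the calcitonin receptor family, had 7.59, 7.44 and 7.32 with IFN gamma, against 8.54, 9.14 and 8.31 with mock (difference -1.21 ± 0.24, adjusted p = 7.9e-04). Fam110c read 6.90, 6.17 and 6.24 with IFN gamma, against 8.30, 8.15 and 8.23 with mock (difference -1.79 ± 0.25, adjusted p = 2.3e-06). IFN gamma array 1 of Fam110c lay above the other arrays of its group. The transcription factors Nfatc1, Glis1 and Bnc1 fell, with differences of -1.20 ± 0.26, -1.15 ± 0.28 and -1.04 ± 0.20, as did Tcim, a regulator of Wnt signalling (-1.37 ± 0.24), and Pxdc1 (-1.11 ± 0.20). The membrane protein Tmem119 (-1.36 ± 0.34) and the phosphatase Dusp14 (-1.04 ± 0.25) each lost the call in 1 fit that left out an array, and the palmitoyltransferase Zdhhc14 (-1.16 ± 0.32) in 4.

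**Figure D4:**
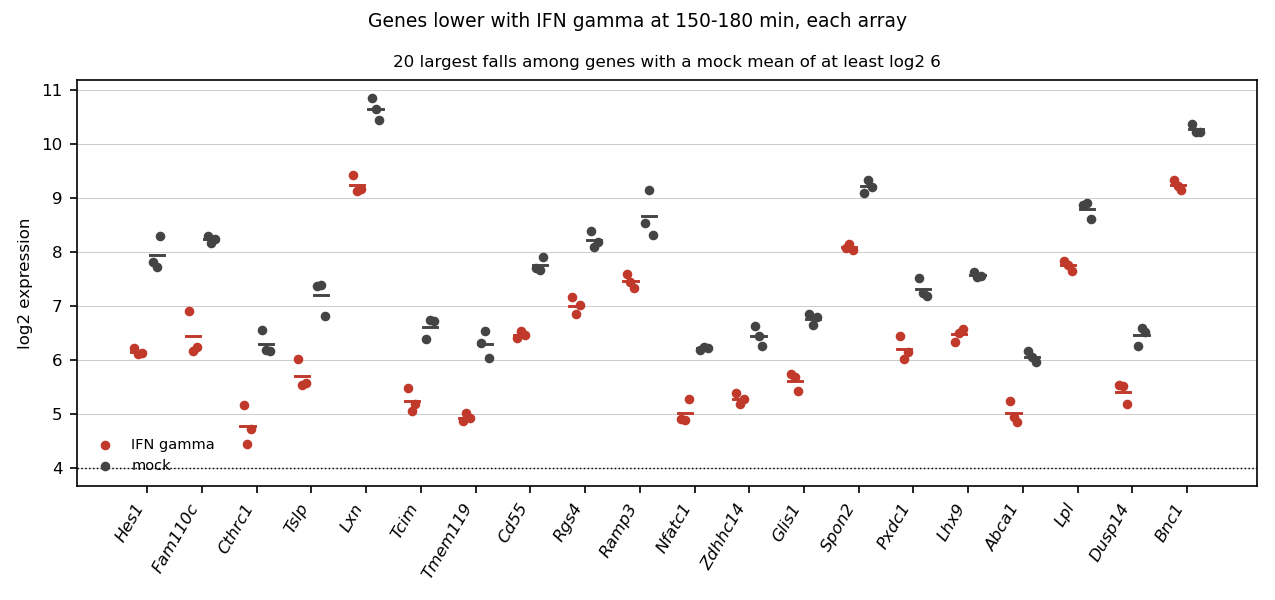
Log2 expression on each array at 150 to 180 min of the 20 genes with the largest falls among those with a mock mean of at least log2 6, with IFN gamma in red to the left of mock in grey; points are arrays, short lines means and the dotted line the filter at log2 4. The red points lie below the grey ones in each gene, by a mean difference of 1.04 (Bnc1) to 1.79 (Hes1).

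Among lists of fibroblast programmes, single genes fell while most members did not pass the test. Of 17 TGF-beta and BMP targets and ligands 0 rose and 3 fell, with a median of 0.01: Id4, an inhibitor of helix-loop-helix factors, had a difference of -0.99 ± 0.16, and the growth factors Tgfb2 and Tgfb3 differences of -0.86 ± 0.15 and -0.65 ± 0.16. Of 27 extracellular matrix genes 3 rose and 2 fell, with a median of -0.25; Has2, the hyaluronan synthase, the matrix protein Tnc and the protease inhibitor Timp3 rose by 0.80, 0.79 and 0.77, and Postn (-0.67 ± 0.16) fell along with Cthrc1. With the window alone 4 of these 27 genes were called higher and 8 lower. Of 16 cytokines and growth factors Il15, which sustains NK cells, rose (0.95) and Tslp and the fibroblast growth factor Fgf7 (-0.51) fell; Il15 lost its call in 5 of the 6 fits that left out 1 array and Fgf7 in 4.

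Of 25 immediate-early genes 5 rose and 1 fell, with a median of 0.06. Atf3, a stress-induced repressor, rose by 1.69 ± 0.17, the RNA-binding protein Zfp36 by 1.28 ± 0.24, and Maff, Jun and Egr2 by 0.98, 0.70 and 0.62. Egr3 moved the other way from Egr2, at 9.01, 9.09 and 8.81 in IFN gamma arrays, against 9.78, 9.94 and 10.12 in mock arrays (difference -0.98 ± 0.17, adjusted p = 7.7e-05). Fos was not called (0.06 ± 0.23, adjusted p = 0.94). Of 13 feedback genes of MAP kinase signalling Spry1 (-0.85) and Spry4 (-0.89), which restrain receptor tyrosine kinases, fell, and both calls were lost in 5 of the 6 fits that left out 1 array. Of 14 clock genes Per2 (-0.84) and Dbp (-0.68) fell, Dbp at levels around the filter, and of 10 Wnt genes Dkk2 (-0.96). Leaving out 1 array ended the call of Egr2 and Dbp in 5 of 6 fits, of Maff and Dkk2 in 4, of Per2 and Tgfb3 in 2, and of Jun in 1. Of 16 sterol and lipid genes Scd1, a desaturase, fell (-0.48 ± 0.14), a call lost in all 6 such fits.

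Of 28 cell cycle genes 1 rose, the kinase Cdk6 (1.06 ± 0.11, adjusted p = 3.3e-09), and 0 fell; the window alone called 1 higher and 4 lower. Cyclin D1 (Ccnd1) had a difference of -0.51 ± 0.18 and was not called (adjusted p = 0.11). Atf3 was the only call among 14 genes of the ATF4 and unfolded protein response. No gene was called among 15 SRF and YAP targets, 11 p53 targets, 18 ribosomal protein genes or 25 oxidative phosphorylation genes in the limma fit of all arrays, with medians of -0.19, -0.17, -0.09 and -0.19. The window alone called 3, 1, 0 and 0 of them lower. Over all genes 5.91% were called in the fit of all arrays, a share at which lists of 11 to 28 genes hold few calls or none. Of the markers, S100a4 (fibroblast, -0.27), Cd14 (-0.88) and Lpl fell, and S100a4 lost its call in 5 of the 6 fits that left out 1 array. Cd14 and Lpl are markers of other cell types, whose remaining markers were under log2 4 in both groups, including Fabp4 (an adipocyte lipid-binding protein) at means of 3.68 with IFN gamma and 3.64 with mock. The part of such cells in the falls was not tested.

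Set against IFN alpha in the same window, IFN gamma gave higher levels for 267 genes (2.8%) and lower levels for 181 (1.9%), with GTPases and Cxcl9 among the first and classical antiviral genes among the second. With array numbers as a block, which paired the arrays of these 2 groups and was not used for the values below, the counts were 411 and 314. Of 47 antiviral effectors 1 was higher with IFN gamma and 34 lower, with a median of -1.80 against 0.0 over all genes. Genes such as Mx1, Cmpk2 and Ifit1bl1 had means under log2 4 with IFN gamma and with mock. They passed the filter through groups where they were high, such as IFN alpha. That filter largely set their lower level with IFN gamma and so limits what such counts show. Mx1 stood at 3.56, 3.54 and 4.27 in IFN gamma arrays, against 11.15, 11.12 and 10.95 in IFN alpha arrays, a difference of -7.28 ± 0.42 (adjusted p = 1.0e-14). Rsad2, or viperin, had 4.91, 4.45 and 4.87 with IFN gamma, against 11.14, 11.22 and 11.37 with IFN alpha (difference -6.50 ± 0.59, adjusted p = 7.0e-10). Neither gene was called over mock with IFN gamma in the fit of all arrays, while the window alone gave Rsad2 an adjusted p of 9.7e-06. Mx2, Cmpk2, Ifit3 and Ifit1bl1 were also lower, with differences of -5.73 ± 0.43, -5.38 ± 0.45, -5.07 ± 0.40 and -4.48 ± 0.56, as was Usp18, the restraint on the IFN alpha receptor (-4.28 ± 0.50).

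Higher with IFN gamma were 5 of 6 immunity-related GTPases, with a median of 1.54, and 4 of 6 guanylate-binding proteins, with a median of 2.16. Cxcl9 was at 9.74, 9.39 and 9.39 in IFN gamma arrays, against 3.63, 2.93 and 3.04 in IFN alpha arrays (difference 6.31 ± 0.48, adjusted p = 1.1e-11), while Cxcl10 differed by -0.56 ± 0.47 and was not called (adjusted p = 1). Apol6 was higher by 4.52 ± 0.32, AA467197 by 3.80 ± 0.21 and BC023105 by 3.64 ± 0.26. Irf1 had a mean of 12.88 with IFN gamma and 8.98 with IFN alpha (difference 3.91 ± 0.19, adjusted p = 1.9e-16). Fst had 11.40 with IFN gamma and 7.28 with IFN alpha (difference 4.12 ± 0.18, adjusted p = 3.6e-17). The level of Fst in IFN alpha arrays differed from mock by -0.15 and was not called (adjusted p = 0.92). Samhd1 was the antiviral gene that was higher with IFN gamma, by 2.32 ± 0.19. Among the inhibitors Socs1, Socs3 and Cish were higher by 3.02 ± 0.34, 2.58 ± 0.15 and 2.88 ± 0.27, and Hk2 and Notch1 by 2.37 ± 0.11 and 2.44 ± 0.27.

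Among the falls, Hes1 differed from its IFN alpha level by -1.49 ± 0.24 and Tslp by -1.78 ± 0.25, in a comparison that shares the IFN gamma arrays on which these genes were chosen. In the promoters with a table entry, genes higher with IFN gamma held GAS in 18% and the ISRE core in 4.85%, while genes lower held them in 9.79% and 16.8%.

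**Figure D5:**
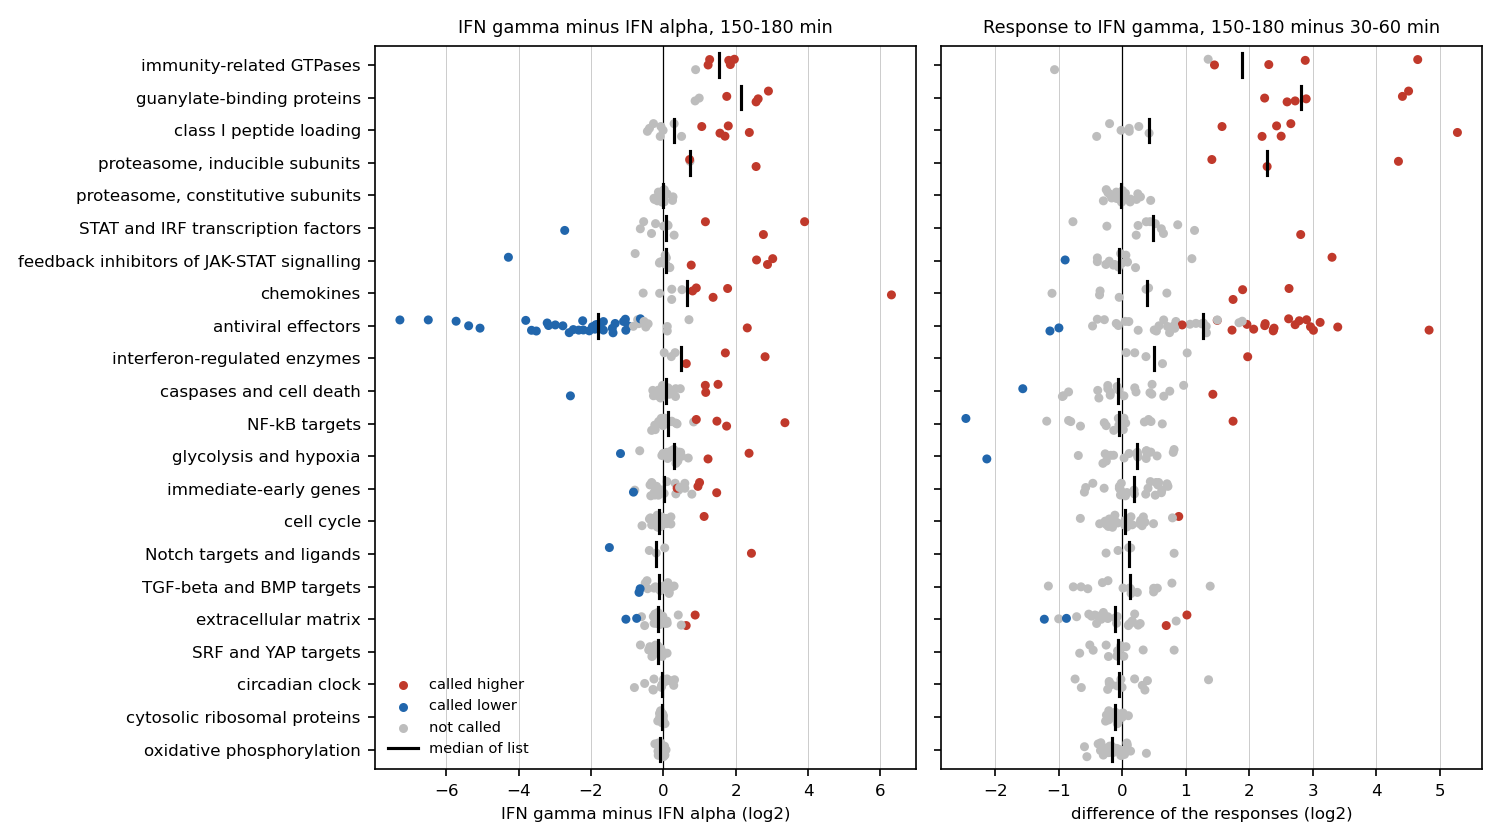
Left, each gene's difference between IFN gamma and IFN alpha arrays at 150 to 180 min (log2); right, its response to IFN gamma at 150 to 180 min minus that at 30 to 60 min (log2). Points are tested genes of the lists named on the left, red where called higher, blue where called lower and grey where not called, with black lines at list medians; the antiviral list has medians of -1.80 on the left and 1.28 on the right.

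The earlier window, read on other arrays, allowed the responses to be set side by side. Calls in all windows came from the same fit with 1 shared spread per gene. Calls shared between windows are therefore not independent repeats. At 30 to 60 min 365 genes were called higher (3.82%) and 197 lower (2.06%) with IFN gamma, together 5.89%. Of the genes called higher at 150 to 180 min 214 were among them, which is 51.3% of the later and 58.6% of the earlier list. Of the falls 42 were shared, 28.6% of the later and 21.3% of the earlier list. In the first 30 min 72 genes (0.754%) had been called higher and 4 (0.0419%) lower, and 62 and 2 of these were called the same way at 150 to 180 min. Among the 20 largest falls 12 were called lower at 30 to 60 min, including Hes1, at 6.20, 6.88 and 6.53 with IFN gamma, against 8.55, 8.83 and 7.92 with mock.

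The response differed between the 2 windows for 182 genes by the test of the difference itself: it was higher on the log2 scale at 150 to 180 min for 115 genes (1.2%) and lower for 67 (0.702%). The second count was 39 without IFN gamma array 2, 41 without mock array 1 or 2 of the late window, and 44 without IFN gamma array 3 or mock array 3 of the early one. The 6 guanylate-binding proteins and 3 inducible proteasome genes that passed the filter, 6 of 13 class I genes and 19 of 47 antiviral genes had a larger response late. Of the antiviral genes 2 had a smaller one. Of the genes with a larger response, Gbp2b, Gbp8, Psmb10 and Nlrc5 were under the filter in every array of the early window. They passed it through groups where they were high, which partly sets these counts. Nlrc5 was at background in every array of the early window, at 2.38, 2.37 and 2.38 with IFN gamma and 2.37, 2.37 and 2.37 with mock, and its response was larger late by 5.28 ± 0.18 (adjusted p = 1.4e-20). Gbp2b, with an early difference of 0.01, differed by 4.41 ± 0.15 and Psmb10 by 4.35 ± 0.42. Gbp6 had an early response of 4.87 and gained 4.51 ± 0.44 more, and Oasl2 and Gm4951 gained 4.83 ± 0.64 and 4.66 ± 0.33. Irf1 showed its response in both windows, at 12.69, 13.24 and 13.05 with IFN gamma at 30 to 60 min, against 6.95, 7.19 and 7.28 with mock, and the difference between windows was -0.78 ± 0.27 (adjusted p = 0.2). Igtp, Tap1 and Cxcl9 likewise had no called difference between windows (1.35 ± 0.41, 0.42 ± 0.40 and -0.36 ± 0.68).

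Of the genes called lower in this test, some fell below mock with a call late but not early. Such were Nfatc1, Glis1, Cthrc1 and Lxn, with differences between windows of -1.71 ± 0.36, -1.47 ± 0.39, -1.23 ± 0.30 and -1.13 ± 0.24. Nfatc1 was under the filter in every early array, at 3.72, 3.78 and 3.47 with IFN gamma and 2.95, 3.29 and 3.18 with mock. Cthrc1 lay around the filter there, at 3.92, 3.96 and 3.77 with IFN gamma and 4.07, 4.2 and 4.27 with mock. An early fall of either gene could therefore hardly be read. Other genes called lower in this test had a larger rise early. Cped1 was at 8.89, 8.89 and 8.89 with IFN gamma at 30 to 60 min, against 5.91, 5.68 and 5.81 with mock. At 150 to 180 min it was at 6.61, 6.98 and 7.21 with IFN gamma, against 5.87, 6.26 and 6.60 with mock, so that the response was smaller late (difference -2.40 ± 0.32 SE, adjusted p = 8.0e-06). The late groups lay next to each other without overlap, and the late difference had an adjusted p of 0.078 with all arrays and 0.043 with the window alone, which called it higher. Pde4b, a phosphodiesterase that degrades cyclic AMP, had 10.56, 11.41 and 10.86 with IFN gamma at 30 to 60 min, against 8.35, 9.11 and 8.46 with mock. Late it had 10.43, 10.29 and 10.50 with IFN gamma, against 10.25, 10.16 and 10.17 with mock, and the response was smaller late (difference -2.09 ± 0.31, adjusted p = 3.2e-05). Its mock level was higher in the late window than in the early one, as was that of Bnip3, at 4.91, 4.68 and 4.87 early and 8.75, 8.61 and 8.54 late. The responses of Bnip3, Serpina3n, a serine protease inhibitor, Ifitm5 and the inositol phosphate kinase Itpkc were smaller late, with differences of -2.13 ± 0.41, -2.12 ± 0.38, -2.40 ± 0.33 and -1.89 ± 0.37. Socs3 and Samhd1 also responded less late (differences -0.90 ± 0.21 and -1.0 ± 0.26), while remaining called over mock. The IFN gamma mean of Samhd1 was 10.68 early and 10.72 late, and its mock mean 6.13 early and 7.17 late.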

How the data were processed

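RNA made in a 30 min window was measured on Affymetrix arrays, and the authors deposited log2 values of 45101 probe sets, made with GCRMA according to the submitters' processing notes, with no version stated. Values were used as deposited, without further scaling; arrays give no counts, and their number limits the precision. Symbols came from the platform annotation: 34945 probe sets had a single symbol, 932 several and 9160 none. A probe set was kept where log2 passed 4 in at least 3 arrays, and where several probe sets of a gene were kept, that of the highest mean stood for it. In limma 3.58.1 (R 4.3.3) a mean for each of the 12 groups was estimated from the 36 arrays with an intensity trend, two-sided, with Benjamini-Hochberg adjustment over 9549 genes (24 residual and 6.8 prior degrees of freedom); errors are standard errors of this fit. The scripts were tested on simulated data.

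The members and the gene lists were chosen with earlier results of these data known. Named genes were a panel (1 further member is not reported here; Irf1, Irf8, Socs1, Socs3, Nlrc5, Ciita, Iigp1, Igtp, Gbp2, Tap1, Psmb9, Cd274, Cxcl9, Cxcl10, Ifit1, Mx1, Usp18, Hes1, Ccnd1, Fos, Actb and Gapdh where tested), the 15 largest rises and 20 largest falls among called genes whose groups did not overlap and whose higher group reached log2 6, the 10 largest rises with a mock mean of at least 6, up to 4 called members of a list in each direction (all where 6 or fewer), or 2 members of lists without a call, and the 6 largest in each direction of the other comparisons. For the difference between windows the condition on overlap was not applied, since it cannot be read for a difference of 2 differences.

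Deviations from group means correlated between same-numbered IFN gamma and IFN alpha arrays with r of 0.69, 0.23 and 0.26. For IFN gamma and mock the r values were mixed in sign (0.45, -0.21 and 0.33). The main fit paired no arrays, and pairing by array number entered only in the alternatives with a replicate block. Promoters were searched in Python 3.11.15; 7826 of the 9549 genes matched a promoter by symbol. The alternatives tried were a filter at log2 6 or none, adding 16 before the log, quantile and median normalization, all probe sets, the windows compared alone, a 2-fold minimum, a replicate block, array weights, no intensity trend, leaving out each array, and leaving out mock 0-60 min array 1, which stands apart. Chosen after seeing the data were only the 6 arrays compared, a shift to the median of the tested genes with all arrays or the window alone, leaving out IFN gamma array 3 within the window, and a second weighting method.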

Additional observations from a re-analysis of the deposited data

Results flagged for a closer look

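The response to IFN gamma at 150 to 180 min differed from that at 30 to 60 min by the test of that difference for the 12 genes named for it. It was larger late for Nlrc5 (5.28), Oasl2 (4.83), Gm4951 (4.66), Gbp6 (4.51), Gbp2b (4.41) and Psmb10 (4.35), and smaller late for Cped1 (-2.40), Ifitm5 (-2.40), Bnip3 (-2.13), Serpina3n (-2.12), Pde4b (-2.09) and Itpkc (-1.89), all log2 values. The arrays of the 2 windows share no sample, and window and time cannot be told apart from the handling of each set.

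Probe sets outside the gene table were tested in a fit of all 21874 kept probe sets. That fit called 836 probe sets higher and 193 lower in total. Of 512 kept probe sets with several gene symbols 32 were called higher (6.25%), and of 3380 with no symbol 175 were called higher (5.18%) and 15 lower (0.444%). The largest rise among them was that of the probe set shared by Tgtp1 and Tgtp2, GTPases of the immunity-related family, at 13.83, 13.74 and 13.74 in IFN gamma arrays, against 4.03, 3.92 and 3.93 in mock arrays (difference 9.81). Among the probe sets without a symbol, 1423522_at fell further than any named gene, at 5.05, 3.11 and 3.08 in IFN gamma arrays, against 7.57, 6.95 and 6.64 in mock arrays (difference -3.30). With IFN alpha it was at 4.88, 5.54 and 3.83. Another, 1434657_at, was at 8.01, 7.96 and 8.04 with IFN gamma and 9.72, 9.59 and 9.53 with mock (difference -1.61), and at 8.20, 8.21 and 8.02 with IFN alpha. These probe sets were picked after their values were seen.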

How the results depend on the processing

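For IFN gamma against mock, where the main counts were 417 higher and 147 lower, the counts moved by over 1.5 times with all probe sets (836 higher), the window's arrays alone (481 lower), array weights (1109 and 2490), a replicate block within windows (528 lower), that block with the window alone (833 and 1343), a 2-fold minimum (266 and 30), leaving out mock 0-60 min array 1 (240 lower), the 6 arrays compared (350 lower), the window alone shifted to the median of its tested genes (657 and 458), and the window alone without IFN gamma array 3 (234 lower). Leaving out 1 array gave 315 to 383 higher and 76 to 163 lower. For IFN gamma against IFN alpha the counts moved from 267 and 181 with all probe sets (424 and 305), the window alone (424 and 349), array weights (608 and 561), the block (411 and 314), the block with the window alone (562 and 499) and a 2-fold minimum (149 and 94); leaving out 1 array gave 200 to 234 and 133 to 157. For the difference between windows, 115 and 67, they moved with all probe sets (202 and 101), the windows alone (107 lower), array weights (517 and 700), the block (311 and 234), the block with the windows alone (580 and 488) and without mock 0-60 min array 1 (116 lower); leaving out 1 array gave 97 to 114 and 39 to 71. The causes of these moves were not tested. Limma's default estimate of the array weights did not converge, so another estimate was used after its counts had been seen; the default gave 1172 and 2709, 659 and 691, and 872 and 1615 in the 3 comparisons. GAS with 4 bases in its middle stood in 9.73% of promoters of genes called higher, in place of 16.2%, and the ISRE core without its last base in 22.4%, in place of 13.6%. Of 112 named genes called, 87 kept the call in every alternative, 24 lost it in at least 1 fit with an array left out (14 of the 35 lower, 10 of the 77 higher), and 0 of 132 named genes reversed. Levels under log2 4 are not told from background, so differences against them have no measured base.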
